A study of Cucumis sativus with 4 samples.

Results

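Genes that stood next to each other in the numbering of cucumber gene identifiers, and that differed in the same direction between CsBRC1-RNAi and wild-type buds, are described here. The members were chosen from the measured values. A gene was a candidate if all 4 of its values were at least 0.5, its higher group mean was from 5 to under 100, and the smaller value of its higher group was at least 2 times the larger value of the other group. A candidate became a member if the row before or after it on the same chromosome digit was a candidate of the same direction with a number at most 10 away. The rule found 52 members in 24 runs, out of 17770 genes in the table and 17691 with a chromosome digit. Of the 52, 30 genes in 14 runs were higher in CsBRC1-RNAi and 22 genes in 10 runs were lower. Because the rule used the values of all 4 libraries, the differences between genotypes given below are descriptions and carry no test of their own.

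The study sequenced RNA from the lateral (axillary) buds of cucumber, Cucumis sativus, from plants 2 months old. There were 2 libraries of CsBRC1-RNAi plants and 2 of wild-type plants. In CsBRC1-RNAi a fragment of the CsBRC1 coding sequence, built into a silencing construct, targets the transcript of that gene. The cucumber transformed was inbred line R1461, by Agrobacterium strain GV3101. The labels describe an empty PFGC-1008 vector as the transformation control, yet both control libraries are labelled wild type and are called so here. The promoter that drives the construct, the number of transgenic lines, and whether plants were pooled are not given in the labels. No label says that the libraries of a genotype came from separate plants, so any spread between them may be technical. In bulk buds, fewer cells of a type and less RNA per cell cannot be told apart.

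BRANCHED1 proteins, to which CsBRC1 belongs, are TCP-family transcription factors that keep axillary buds of flowering plants dormant, and the series title names CsPIN1b and CsPIN3, carriers that export the hormone auxin from cells, as targets that CsBRC1 represses. In plant genomes, genes that lie side by side can be tandem copies left by unequal crossing over, can belong to clusters that serve a shared pathway, or can share a promoter region between divergent genes. The identifiers here read Csa, a chromosome digit, G and a running number that gives the order along that chromosome. This reading follows the naming convention and was not checked against an assembly. None of the 52 members, and 0 of the 17770 identifiers, matched the RefSeq cucumber gene table of 23999 genes (assembly Cucumber_9930_V3). Genes are therefore called by identifier only, with no name, role or sequence. For the same reason CsBRC1 itself, both carriers and bud marker genes were not analysed here, and the genotypes rest on the labels. Whether neighbouring members are near-identical copies, overlap, or are parts of 1 gene model was not tested, and use of strand in counting is not given in the sources used here. Neighbours whose reads could be divided between them are uncertain as separate genes.

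Values are the deposited normalised signal, read numbers scaled by an effective library size, and are not divided by gene length. Levels are therefore compared between libraries for 1 gene, not between genes. The libraries held 28917558 and 31050990 recovered reads in CsBRC1-RNAi and 32385236 and 26912976 in wild type. A single read was worth at most 0.0392. The fewest reads behind any value of a member were 16, in CsBRC1-RNAi replicate 1. The wild-type libraries differed more from each other than the CsBRC1-RNAi libraries did. Among the 52 members the median absolute log2 difference between replicates was 0.331 in CsBRC1-RNAi and 0.411 in wild type. Over the 12441 genes within the rule's limits on level it was 0.199 in CsBRC1-RNAi and 0.32 in wild type.

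The numbering moves in steps of 10, so a step of 10 joins consecutive numbers. Of 17684 neighbouring rows on a chromosome, 12360 (69.9%) were that close. The single-gene criteria were met by 813 placed genes, 4.6% of those with a chromosome digit. CsBRC1-RNAi had the higher values in 478 of them (2.7%) and the lower values in 335 (1.89%). Members made up 6.28% of the higher candidates and 6.57% of the lower ones. Among those 12360 close rows, 28 pairs of candidates shared a direction and 7 did not. The neighbouring rows more than 10 numbers apart were fewer, and there the counts were 17 and 7. Candidate pairs of a shared direction were thus not particular to consecutive numbers. Of the runs, 21 held 2 genes, 2 held 3 genes and 1 held 4 genes. Every chromosome had at least 1 run. Chromosome 6 had the most, with 5 runs and 10 members among 153 candidates of 2951 placed genes. Chromosome 4 had the fewest, with 1 run, which was the run of 4, among 101 candidates of 2146 placed genes. These counts follow in part the number of candidates on a chromosome and were not tested.

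By limma over 17726 genes, 37 of the 52 members passed an adjusted p under 0.05 between CsBRC1-RNAi and wild type, where 3.61% of all genes tested did. They were 19 of the 30 members higher in CsBRC1-RNAi (2.2% of all genes) and 18 of the 22 lower ones (1.41% of all genes). The rule used this contrast and demands groups that do not overlap, which held for 67.1% of all genes tested, so nothing is read from the counts. Every member passed in 12 runs, some but not all in 9, and none in 3. On the recovered reads, edgeR called 31 of the 52 (2.38% of all genes) and DESeq2 called 52 (22.1% of all genes). Leaving out any library leaves its genotype with a single one, so nothing is read from the calls of those fits. In them the median log2 fold change was 1.66 to 1.77 in the higher members. In the lower members it was -2.29 to -2.07.

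The fold between genotypes had a higher median in the members lower in CsBRC1-RNAi than in those that were higher. The higher group mean was a median of 6.55 times the other in the 22 lower members (2.19 to 11.0), and a median of 3.86 times in the 30 higher members (2.52 to 7.59). On the limma scale, log2(value + 1), the median log2 fold change was -2.32 in the lower members and 1.80 in the higher ones, against -0.006 over all genes tested. The 7 members with a fold of at least 8 were all lower in CsBRC1-RNAi. They sat in 3 runs, on chromosomes 3, 4 and 7. These sizes describe genes chosen for their fold and were not tested against each other.

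**Figure D1:**
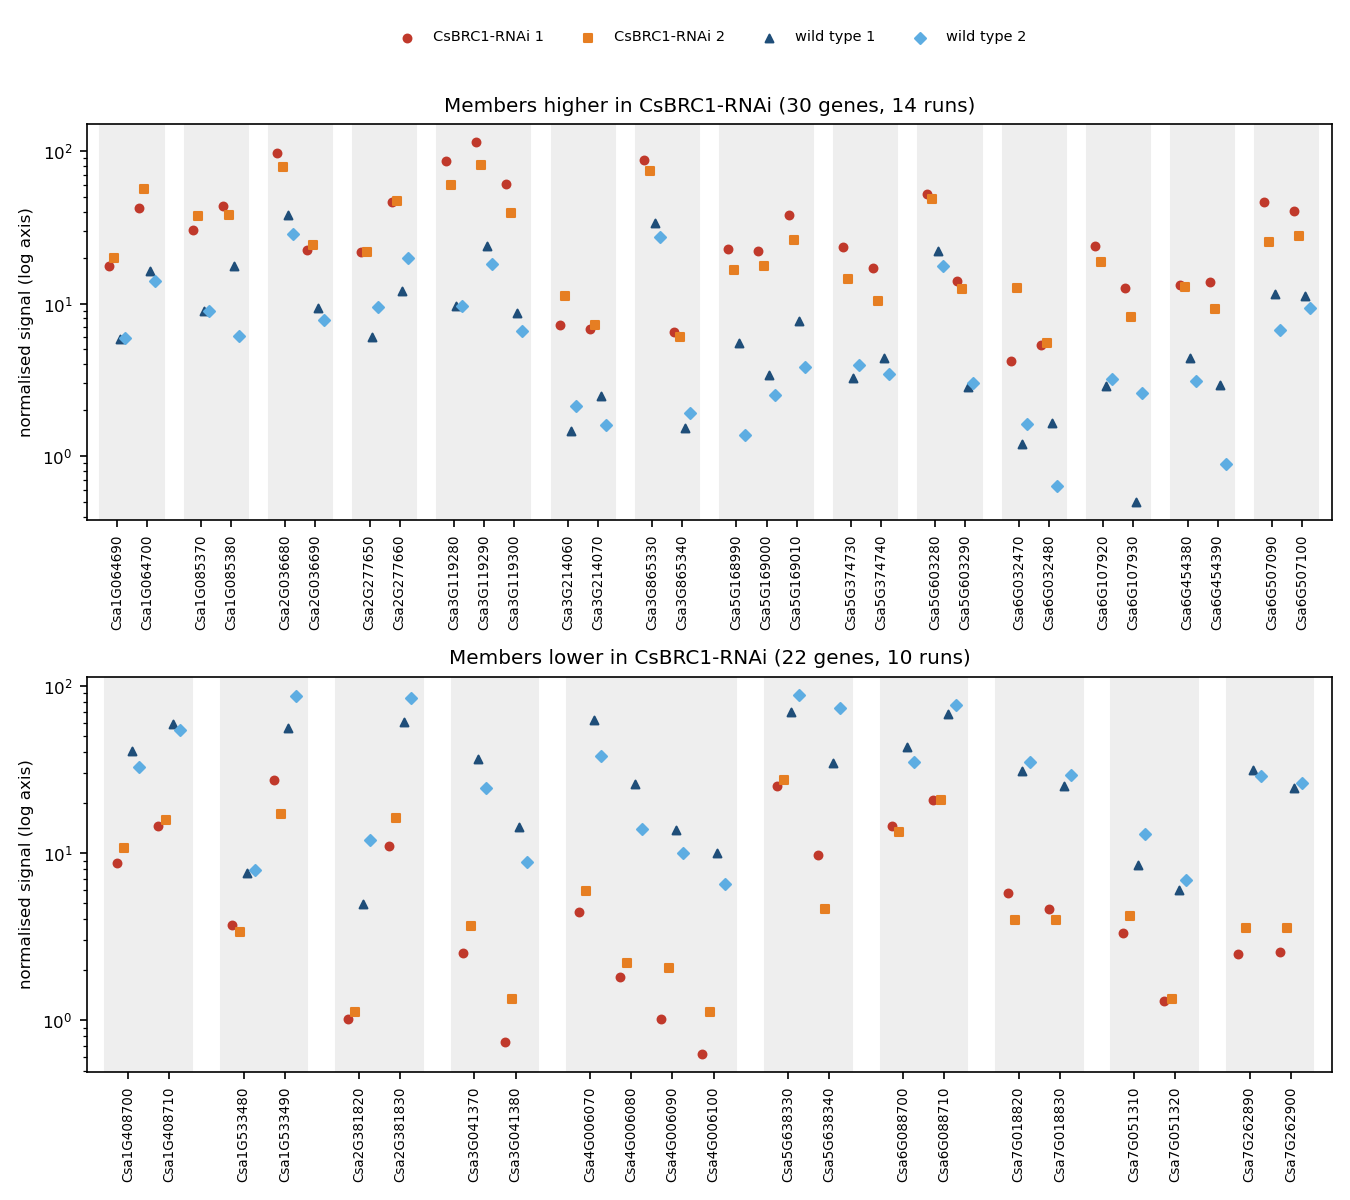
Normalised signal (log axis) of the 52 members in each library, with each run on a grey band. The upper panel holds the 30 genes higher in CsBRC1-RNAi and the lower panel the 22 genes lower in CsBRC1-RNAi. Points are single libraries. Red circles and orange squares (CsBRC1-RNAi) do not overlap the blue triangles and light blue diamonds (wild type) in any gene, which the rule requires.

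The run of 4 on chromosome 4, Csa4G006070 to Csa4G006100, was lower in CsBRC1-RNAi. Csa4G006070 had 4.43 and 5.91 in CsBRC1-RNAi replicates 1 and 2, against 62.7 and 38.0 in wild type replicates 1 and 2. Csa4G006080 had 1.80 and 2.20 in CsBRC1-RNAi, against 25.8 and 13.9 in wild type. All 4 genes had the same order of libraries, with wild type 1 highest and CsBRC1-RNAi 1 lowest. Csa4G006090 had 1.02 and 2.04 in CsBRC1-RNAi, against 13.6 and 10.03 in wild type. Csa4G006100 had 0.628 and 1.12 in CsBRC1-RNAi, against 10.04 and 6.52 in wild type. The fold between group means, wild type over CsBRC1-RNAi, was 9.73, 9.93, 7.73 and 9.49 along the run. Csa4G006070 averaged 5.17 ± 1.05 in CsBRC1-RNAi and 50.3 ± 17.4 in wild type (SD, n = 2 each), with a log2 fold change of -3.02 ± 0.31 (SE).

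The genes on either side of that run did not go with it. The row before it, Csa4G006060, had 22.3 and 87.6 in CsBRC1-RNAi, against 0.028 and 29.0 in wild type. It stood at a single read in wild type 1, the library in which the 4 members were highest, and the genotypes overlapped. The next row after the run was 30 numbers on, Csa4G006130, with 5.22 and 6.41 in CsBRC1-RNAi against 0.308 and 0.213 in wild type. It was higher in CsBRC1-RNAi, the opposite direction, which limma placed at an adjusted p of 0.023 and a log2 fold change of 2.43.

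The run of 3 on chromosome 3, Csa3G119280 to Csa3G119300, was higher in CsBRC1-RNAi. Csa3G119280 had 86.1 and 60.2 in CsBRC1-RNAi, against 9.71 and 9.57 in wild type, a fold of 7.59 between means and the largest among the higher members. Csa3G119290 had 114 and 81.6 in CsBRC1-RNAi, against 23.8 and 18.2 in wild type. Csa3G119300 had 61.0 and 38.9 in CsBRC1-RNAi, against 8.70 and 6.59 in wild type. In all 3 genes replicate 1 exceeded replicate 2 in both genotypes. The log2 fold changes were 2.78 ± 0.24, 2.16 ± 0.25 and 2.54 ± 0.29 (SE). The row after the run, Csa3G119310, was also apart in the same direction, with 30.1 and 23.1 in CsBRC1-RNAi against 13.6 and 8.82 in wild type, but its nearest values were less than 2-fold apart. The row before it, Csa3G119260, had 4.67 and 6.34 in CsBRC1-RNAi and 6.52 and 4.54 in wild type, which overlap.

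The run of 3 on chromosome 5, Csa5G168990 to Csa5G169010, was also higher in CsBRC1-RNAi, and its wild-type libraries stood apart from each other. Csa5G168990 had 22.9 and 16.7 in CsBRC1-RNAi, against 5.51 and 1.38 in wild type. Csa5G169000 had 21.97 and 17.5 in CsBRC1-RNAi, against 3.38 and 2.52 in wild type. Csa5G169010 had 38.1 and 26.2 in CsBRC1-RNAi, against 7.72 and 3.83 in wild type. Wild type 2 was the lowest library in all 3 genes, by a log2 difference from wild type 1 of -1.995, -0.43 and -1.01. The row before the run, Csa5G168980, had 231 and 150 in CsBRC1-RNAi against 126 and 134 in wild type, which lies above the rule's limit on level and under its fold. The row after it, Csa5G169030, overlapped between the genotypes, at 2.20 and 1.48 in CsBRC1-RNAi and 1.99 and 1.91 in wild type.

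**Figure D2:**
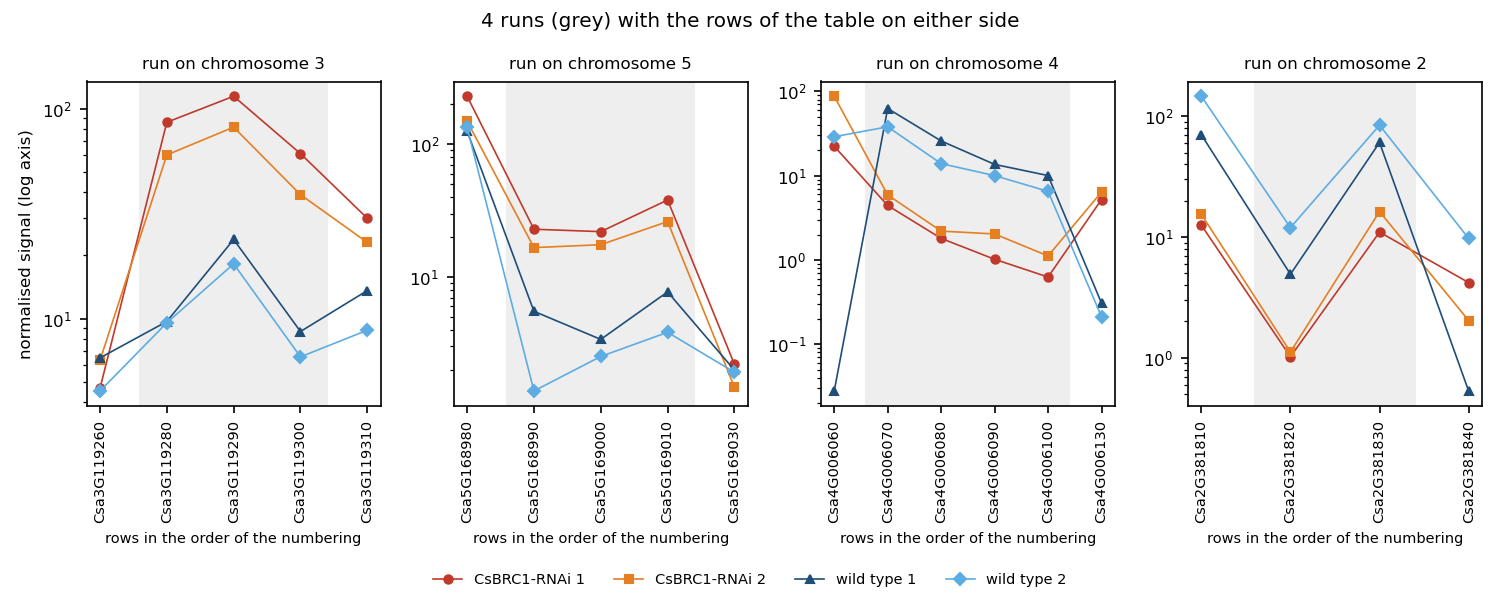
Normalised signal (log axis) along 4 runs, on grey bands, and in the table rows on either side, 1 line per library. The chromosome 3 and 5 runs are higher and the chromosome 4 and 2 runs lower in CsBRC1-RNAi. The lines of the genotypes part within the bands. Outside them they close or cross, except at Csa3G119310, at Csa4G006130, where they part the opposite way, and at Csa2G381810, which went the way of its run.

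Among the pairs lower in CsBRC1-RNAi, the pair on chromosome 3 had the largest fold, a geometric mean of 10.4. Csa3G041380 had 0.746 and 1.35 in CsBRC1-RNAi, against 14.3 and 8.79 in wild type, and its fold of 11.0 was the largest of any member. Csa3G041370 had 2.51 and 3.68 in CsBRC1-RNAi, against 36.4 and 24.6 in wild type. Both genes were lowest in CsBRC1-RNAi 1 and highest in wild type 1. The pair on chromosome 7 with the largest fold was Csa7G262890, with 2.47 and 3.58 in CsBRC1-RNAi against 31.2 and 28.9 in wild type, and Csa7G262900, with 2.55 and 3.58 in CsBRC1-RNAi against 24.3 and 26.1 in wild type. In CsBRC1-RNAi these neighbours were within 0.1 of each other in each library. A second chromosome 7 pair was Csa7G018820, with 5.77 and 3.98 in CsBRC1-RNAi against 30.8 and 34.8 in wild type, and Csa7G018830, with 4.59 and 3.98 in CsBRC1-RNAi against 25.2 and 29.3 in wild type.

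The pair on chromosome 2 would have been a run of 3 without the rule's upper limit on level. Csa2G381820 had 1.02 and 1.12 in CsBRC1-RNAi, against 4.92 and 11.98 in wild type. Csa2G381830 had 11.0 and 16.3 in CsBRC1-RNAi, against 60.7 and 84.5 in wild type. The row before them, Csa2G381810, had 12.6 and 15.4 in CsBRC1-RNAi against 70.3 and 147 in wild type, which limma called at an adjusted p of 0.0335 with a log2 fold change of -2.78 ± 0.37 (SE). All 3 genes were higher in wild type 2 than in wild type 1. The lower pair with the highest mean level was on chromosome 5. Csa5G638330 had 25.0 and 27.1 in CsBRC1-RNAi, against 69.4 and 88.5 in wild type. Its neighbour Csa5G638340 had 9.73 and 4.63 in CsBRC1-RNAi, against 34.5 and 73.5 in wild type, so the CsBRC1-RNAi replicates differed in opposite directions in these neighbours.

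Among the pairs higher in CsBRC1-RNAi, the largest folds were in 4 pairs on chromosomes 5 and 6. Csa6G107920 had 23.7 and 18.8 in CsBRC1-RNAi, against 2.88 and 3.19 in wild type. Csa6G107930 had 12.6 and 8.15 in CsBRC1-RNAi, against 0.503 and 2.59 in wild type. The wild-type values of Csa6G107930 rest on 18 reads in replicate 1 and 73 reads in replicate 2, and its value in wild type 1 lay just above the minimum of 0.5. Csa6G032470 had 4.199 and 12.7 in CsBRC1-RNAi against 1.20 and 1.63 in wild type, and Csa6G032480 had 5.38 and 5.52 in CsBRC1-RNAi against 1.65 and 0.638 in wild type. The CsBRC1-RNAi replicates thus differed 3-fold in the first of these neighbours and were nearly equal in the second. Csa6G454380 had 13.3 and 12.9 in CsBRC1-RNAi, against 4.42 and 3.12 in wild type. Its neighbour Csa6G454390 had 13.8 and 9.23 in CsBRC1-RNAi, against 2.91 and 0.886 in wild type. In both of these genes each replicate 2 was the lower library of its genotype. Csa5G374730 had 23.4 and 14.6 in CsBRC1-RNAi against 3.24 and 3.97 in wild type, and Csa5G374740 had 17.2 and 10.4 in CsBRC1-RNAi against 4.39 and 3.44 in wild type. The higher pair with the highest mean level was Csa2G036680, with 97.2 and 78.1 in CsBRC1-RNAi against 38.3 and 28.6 in wild type, and Csa2G036690, with 22.5 and 24.3 in CsBRC1-RNAi against 9.34 and 7.83 in wild type.

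The other 11 runs were pairs. Those higher in CsBRC1-RNAi began at Csa1G064690, Csa1G085370, Csa2G277650, Csa3G214060, Csa3G865330, Csa5G603280 and Csa6G507090, with geometric mean folds from 2.85 to 4.22. Those lower in CsBRC1-RNAi began at Csa1G408700, Csa1G533480, Csa6G088700 and Csa7G051310, with geometric mean folds from 2.65 to 3.76. In the pair Csa2G277650 and Csa2G277660 the CsBRC1-RNAi replicates were nearly equal, at 21.7 and 21.7 in the first gene and 46.6 and 46.8 in the second. The wild-type values were 6.04 and 9.53 in Csa2G277650, and 12.2 and 19.8 in Csa2G277660. At the edge of the rule, the nearest values of the genotypes were 2.04-fold apart in the member Csa2G036680 and 1.997-fold in Csa6G110300, which stood beside a candidate and was left out. Among the lower genes they were 2.02-fold apart in the member Csa7G051310, and 1.97-fold in Csa6G120400, which was left out.

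At the median, the difference between genotypes was closer in size between neighbours than between members of different runs. The log2 ratio of group means differed by a median of 0.306 within the 28 neighbouring pairs (0.008 to 1.31), and by a median of 0.587 over all 633 pairs of members of the same direction from different runs. It was within 0.5 in 19 of the 28. This is a description, since members share libraries and were chosen on these ratios. In some runs the ratio of a further gene to the first was nearly constant over all 4 libraries. Csa2G277660 stood at 2.15 and 2.15 times Csa2G277650 in CsBRC1-RNAi and at 2.01 and 2.08 times in wild type. Csa4G006080 stood at 0.407 and 0.372 times Csa4G006070 in CsBRC1-RNAi and at 0.412 and 0.366 times in wild type. The highest of the 4 library ratios was within 1.5 times the lowest in 10 of 28 such comparisons, with a median of 1.82 and a range from 1.07 to 4.86. The widest was that of Csa5G638340 to Csa5G638330, at 0.389 and 0.171 in CsBRC1-RNAi and 0.497 and 0.831 in wild type.

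**Figure D3:**
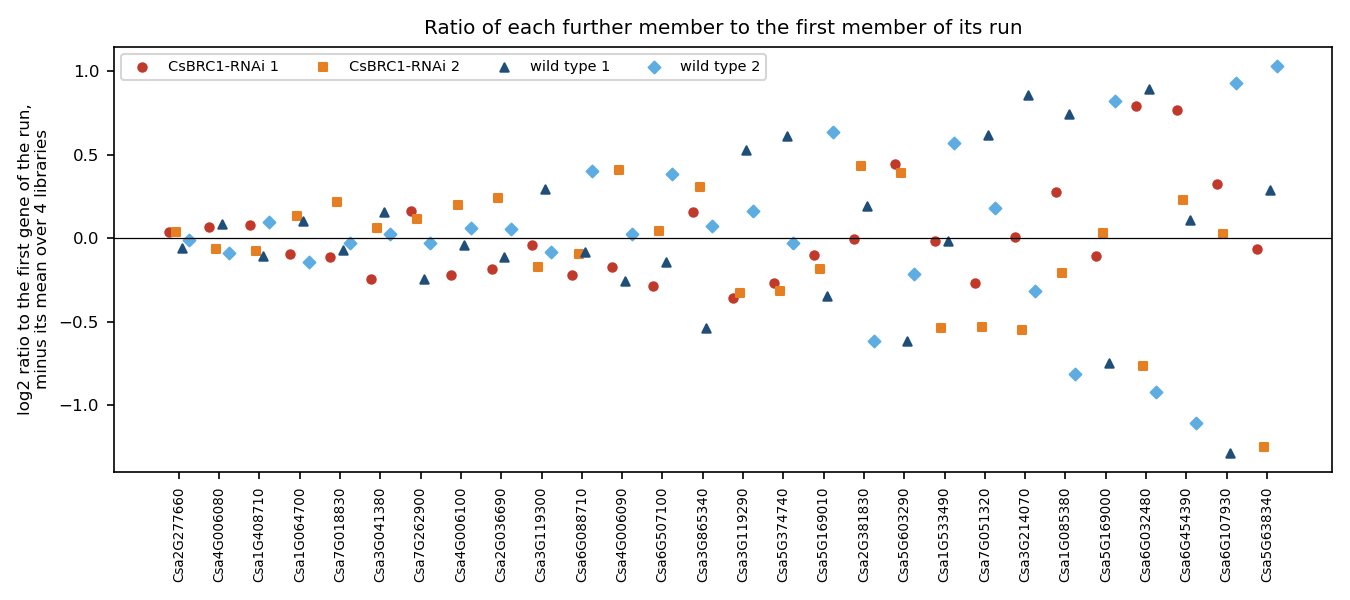
Log2 ratio of each further member to the first member of its run, in each library, less its mean over the 4 libraries (vertical axis), for 28 genes ordered by the spread of the ratio. Points are single libraries. At the left, as in Csa2G277660 and Csa4G006080, the 4 libraries lie close to 0. At the right, as in Csa5G638340, they spread over more than 2 units.

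The direction of the difference between replicates of 1 genotype was not part of the rule. In CsBRC1-RNAi, replicate 2 differed from replicate 1 in the same direction in both genes of 25 of the 28 neighbouring pairs (89.3%). Over 6117 neighbouring rows within the rule's limits on level, the same held for 53.1%. It held for 51.3% of all pairs of higher candidates from different chromosomes and for 53.7% of such pairs of lower candidates. With only pairs in which both differences were at least 0.1 on the log2 scale, the count was 18 of 21 members' pairs (85.7%), and 54.1% of 3205 neighbouring rows. In wild type the members' count was 19 of 28 pairs (67.9%), against 54.5% of the 6117 neighbouring rows. It was 10 of 12 (83.3%) in pairs lower in CsBRC1-RNAi, where all pairs of lower candidates from different chromosomes gave 52.4%. It was 9 of 16 (56.25%) in pairs higher in CsBRC1-RNAi, no more than the 57.7% of such pairs of higher candidates. In the runs of 2 alone, the count was 18 of 21 in CsBRC1-RNAi and 12 of 21 (57.1%) in wild type. Over all runs, with both wild-type differences at least 0.1, the members' count was 17 of 23 pairs (73.9%), against 55.8% of 4176 neighbouring rows. In 17 pairs the neighbours went together in both genotypes, and in 1 pair, Csa1G085370 and Csa1G085380, they went apart in both, though the wild-type difference of the first gene was only 0.02 on the log2 scale.

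Across the 28 pairs, Pearson's r between the replicate differences of the first and second gene was 0.594 in CsBRC1-RNAi and 0.32 in wild type. Over the 6117 neighbouring rows it was 0.063 in CsBRC1-RNAi and 0.074 in wild type. The points share libraries, and pairs of the longer runs share genes, so no p-value is given. With 1 pair from each of the 24 runs the CsBRC1-RNAi count was 21 (r = 0.519) and the wild-type count was 15 (r = 0.287). The members' replicate differences did not all point 1 way, as 25 of the 52 were higher in CsBRC1-RNAi 2 than in CsBRC1-RNAi 1, and 23 were higher in wild type 2 than in wild type 1.

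**Figure D4:**
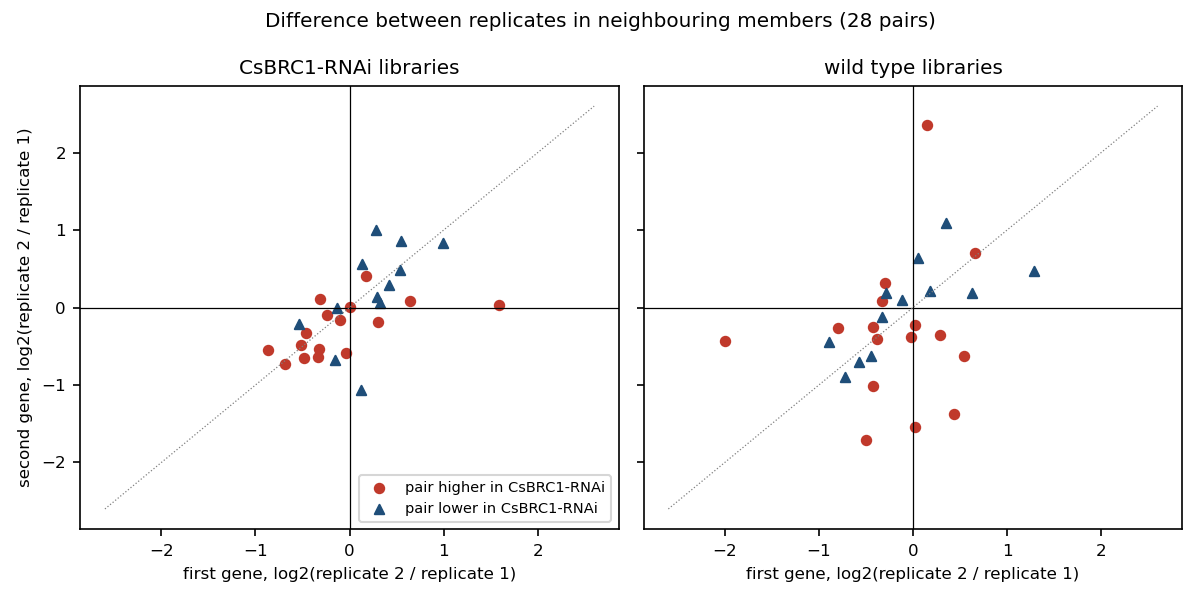
Log2 ratio of replicate 2 to replicate 1 in the first gene (horizontal axis) and the second gene (vertical axis) of each of 28 neighbouring member pairs, in CsBRC1-RNAi (left) and wild type (right). Red circles are pairs higher and blue triangles pairs lower in CsBRC1-RNAi, and the dotted line marks equal values. In CsBRC1-RNAi 25 of 28 points lie at the lower left or upper right of the crossing lines, and in wild type 19 do.

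The rows beside the runs were mixed. Of the 48 rows flanking the 24 runs, 30 had a number at most 10 away. Their genotypes were apart in the direction of the run in 12, apart in the opposite direction in 6 and overlapping in 12. Over all genes tested, 33.3% were apart with CsBRC1-RNAi higher and 33.7% with it lower. Among these 30 rows only Csa2G381810 had nearest values at least 2-fold apart in the run's direction, and it was also the only one that limma called in that direction. This is partly set by the rule, since a flanking row that met every criterion would have joined its run. The fitted difference went with the run in 15 of 20 rows beside higher runs and in 6 of 10 beside lower runs. The median log2 fold change was 0.21 beside higher runs and -0.09 beside lower runs, and the fitted change was above 0 in 49.7% of placed genes outside the runs. Some flanking rows lay well the other way. Csa6G454370, before a higher pair, had 10.6 and 14.4 in CsBRC1-RNAi against 31.4 and 25.2 in wild type. Csa1G408720, after a lower pair, had 73.3 and 61.3 in CsBRC1-RNAi against 43.5 and 33.2 in wild type.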

How the data were processed

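RNA-seq reads were aligned with HISAT and counted with HTSeq, per the submitters' processing notes; tool versions, genome build and annotation were not stated in these sources. Per gene and library, the authors deposited 1 normalised signal value, which they named CPM. Column sums ran from 905783 to 1134691. In each column 100% of values were whole multiples of the smallest value above 0 (within 1e-06), which gave whole reads, and the implied effective library sizes equalled those of edgeR's TMM, so the values have the form of TMM-scaled CPM. All 4 columns were used and 0 belong to no sample. The limit behind a count of 0 is 3 reads, at most 0.118 in signal.

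The fit across all genes used limma 3.58.1 (R 4.3.3, prior variance trended) after log2(value + 1), for 17726 genes that reached a value of 1 in 2 or more libraries (44 removed), with Benjamini and Hochberg adjustment and a threshold of 0.05. For low genes, the folds on this scale come out too small. edgeR 4.0.16 (quasi-likelihood) and DESeq2 1.42.0 were run on the recovered reads. The membership rule and its counts were computed in Python 3.11.15. Both steps were tested on simulated data. The members, the lists and the tests were chosen with earlier results of these data known. The genes named are all members of runs of 3 or more, in each direction the 4 pairs with the largest fold and the pair with the highest mean, the genes at the edge of the fold limit, and rows flanking the longer runs. Csa2G277650 with its neighbour, Csa2G381810, Csa6G454370, Csa1G408720, Csa1G085370, Csa1G085380 and the first genes of the other pairs were named after their values were seen. Replicate differences of the genotypes correlated at 0.038 across genes and no label pairs the libraries, so no block was used.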

Additional observations from a re-analysis of the deposited data

How the results depend on the processing

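The members found (52; 30 higher and 22 lower) numbered 22 at a fold of 3, 285 at a fold of 1.5 and 88 with no upper limit on level, and 52 to 73 with numbers at most 20 or 50 apart, no minimum value or median-of-ratios scaling, of which the scaling shared 50 of the 52 and the others all 52. With a library left out the rule, then applied to 3 values, found 92 to 356, the highest without wild type replicate 1. The 640 calls over all genes became 422 with edgeR, 416 when the mean had to reach 5, 3917 with DESeq2, 1561 with the replicate block and 0 to 3531 with a library left out. There the genotype left with 1 library borrows its spread from the other genotype. Of the 52 members, 37 were called, 31 with edgeR, 52 with DESeq2, 51 with the replicate block and 0 to 47 with a library left out (0 without either CsBRC1-RNAi library or without wild type 2). The median log2 fold change of the lower members was -2.71 with edgeR, -2.71 with DESeq2 and -1.90 with a pseudocount of 2, since a pseudocount draws low genes towards 0. All 52 members kept their direction in every fit that tested them. The rule sets this in advance, since it demands genotypes at least 2-fold apart in these same values, so nothing is read from it. The other causes were not tested. A single read was worth at most 0.0392, and the fewest reads behind a value were 16 in the lower members and 18 in the higher ones. The part of depth was not tested.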

Other observations

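In 7 neighbouring pairs with numbers at most 10 apart, both genes met the single-gene criteria but in opposite directions. Csa2G070310 had 2.59 and 1.77 in CsBRC1-RNAi against 16.8 and 18.7 in wild type, while Csa2G070320 beside it had 27.5 and 30.3 in CsBRC1-RNAi against 9.09 and 7.83 in wild type. Csa1G574810 had 21.3 and 18.9 in CsBRC1-RNAi against 49.4 and 97.1 in wild type, while Csa1G574820 had 10.48 and 7.43 in CsBRC1-RNAi against 1.71 and 0.921 in wild type. A further pair, Csa5G169090 and Csa5G169100, lay on the same chromosome as the run that ends at Csa5G169010, further along the numbering. Csa5G169090 had 44.4 and 29.7 in CsBRC1-RNAi against 11.3 and 4.82 in wild type, and Csa5G169100 had 12.2 and 14.6 in CsBRC1-RNAi against 36.4 and 33.3 in wild type. These genes were named after their values were seen. Among the neighbouring rows more than 10 numbers apart, which were fewer than the 12360 closer ones, 17 pairs of candidates shared a direction and 7 did not.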
